A study of Mus musculus with 16 samples.

Results

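Caveolae are small flask-shaped pits of the plasma membrane that are unusually dense in the endothelium of lung capillaries. Caveolins and cavins build their coat, EHD ATPases hold the neck, PLVAP spans the opening with a thin diaphragm, and the pits can pinch off and carry albumin and other plasma proteins across the cell, a route called transcytosis. The 9 genes described here, of 54532 genes in the expression tables, were taken by name for these roles and not for their values: the caveolins Cav1 and Cav2, the cavins Cavin1, Cavin2 and Cavin3, the EHD ATPases Ehd2 and Ehd4, the diaphragm gene Plvap, and Aqp1, the water channel of capillary endothelium that is also found in caveolae.

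RNA-seq was performed on pulmonary ECs of mice, taken from digested lung on antibody-coated beads by first removing cells with CD45 and then selecting cells with CD31, in 2 experiments. In the first, WT C57/BL6J males aged 8 weeks were given an intratracheal dose of saline (n = 4) or of 10 mg/kg LPS (n = 6). Lipopolysaccharide (LPS) comes from the wall of Gram-negative bacteria and inflames the lung. In the second, Fgfr1 loxP/loxP mice (n = 3) and their Fgfr1 iΔEC/iΔEC littermates (n = 3) all received 2 mg/kg LPS. The iΔEC/iΔEC mice carry the floxed Fgfr1 alleles together with VE-cadherin-CreERT2, a tamoxifen-dependent recombinase driven by an EC promoter, so deletion depends on recombination in each cell. Both genotypes were injected with tamoxifen, as adults. Lungs were taken after 24 h in all groups. The libraries are separate samples by their labels, and p-values measure the spread between them. The first comparison asks how the pulmonary endothelium responds to LPS, and the second what loss of endothelial Fgfr1 changes under LPS.

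Expression is given in FPKM, fragments per kb of gene length, scaled for library size. The reads counted on genes ranged from 13478726 to 18807007 in saline, 17840221 to 19043015 in LPS, 15969575 to 17002788 in loxP/loxP and 16642177 to 16943522 in iΔEC/iΔEC libraries. Each of the 9 genes was covered by at least 583 reads in every library, the lowest being Cavin3 in saline. Counting error was therefore small beside the spread between mice. Fold changes are on the log2(FPKM + 1) scale with their standard error (SE), and adjusted p-values come from limma with Benjamini-Hochberg adjustment over all genes tested. A gene is said to have risen or fallen at an adjusted p at or under 0.05.

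The fraction carried the defining EC transcripts. All 10 endothelial markers tested (among them Pecam1, Cdh5, Kdr, Tek and Cldn5) had at least 1 FPKM in every library of all 4 groups. Transcripts of other cells were present too, and 2 libraries stood apart before any comparison. Saline 1 had a neutrophil marker level, as mean log2(FPKM + 1) over 5 genes, of 7.06, against 3.12, 5.11 and 3.27 in the other saline libraries. LPS 1 had an endothelial marker level of 6.25, against 6.96 to 7.37 in the other LPS libraries. LPS 1 also had the lowest value of the LPS group for 9 of the 9 caveola and transcytosis genes, whether a gene rose or fell. Some values are also given without one of these libraries.

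In saline-treated mice the set was highly expressed. FPKM is scaled by length, so levels can be set side by side. Plvap, with 1098 ± 152 FPKM (SD, n = 4), and Aqp1, with 958 ± 246 FPKM, led the order, and Plvap exceeded Aqp1 in 3 of 4 libraries. Cav1 followed with 656 ± 70.2 FPKM and then Ehd4 with 432 ± 68.4 FPKM. Cavin2, at 376 ± 61.9 FPKM, stood above Cavin1, at 308 ± 39.8 FPKM, in 3 of 4 libraries, so that neither of these neighbouring pairs was ordered in every library. Cav2 (257 ± 34.9 FPKM), Ehd2 (109 ± 25.0 FPKM) and Cavin3 (22.9 ± 6.10 FPKM) closed the order, each above the next in 4 of 4 libraries. The first 7 of these levels lay at or above the 99.3rd percentile of genes tested, Ehd2 at the 97.9th and Cavin3 at the 86.1st. The order of the means was the same in LPS, where Cavin2 and Cavin1 changed places in 3 of 6 libraries.

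After LPS, 6 of the 9 genes fell, 1 rose and 2 did not pass the test. The genes that fell were Cav1, Cav2, Cavin1, Cavin2, Ehd4 and Aqp1, to between 0.395 and 0.542 of their level in saline on the FPKM + 1 scale, and the gene that rose was Cavin3. Of all 14893 genes tested, 53.2% passed, 29.5% higher and 23.7% lower, so a change after LPS was by itself common. When a log2 fold change beyond 1 in size was also required, 18.7% of genes passed (11.9% higher and 6.79% lower) and 5 of the 9 were lower and 0 higher, with Cavin1 (-0.88) and Cavin3 (0.997) under this limit. The saline and LPS libraries did not overlap for 6 of the 9 genes, all 6 lower in LPS, in comparison with 39.4% of all genes (22.7% higher and 16.7% lower). The median log2 fold change of the 9 genes was -1.02, against 0.01 over all genes tested. In this bulk measurement fewer cells of a type and less RNA per cell cannot be told apart. The plot of FPKM by library shows the saline and LPS libraries of each gene.

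**Figure D1:**
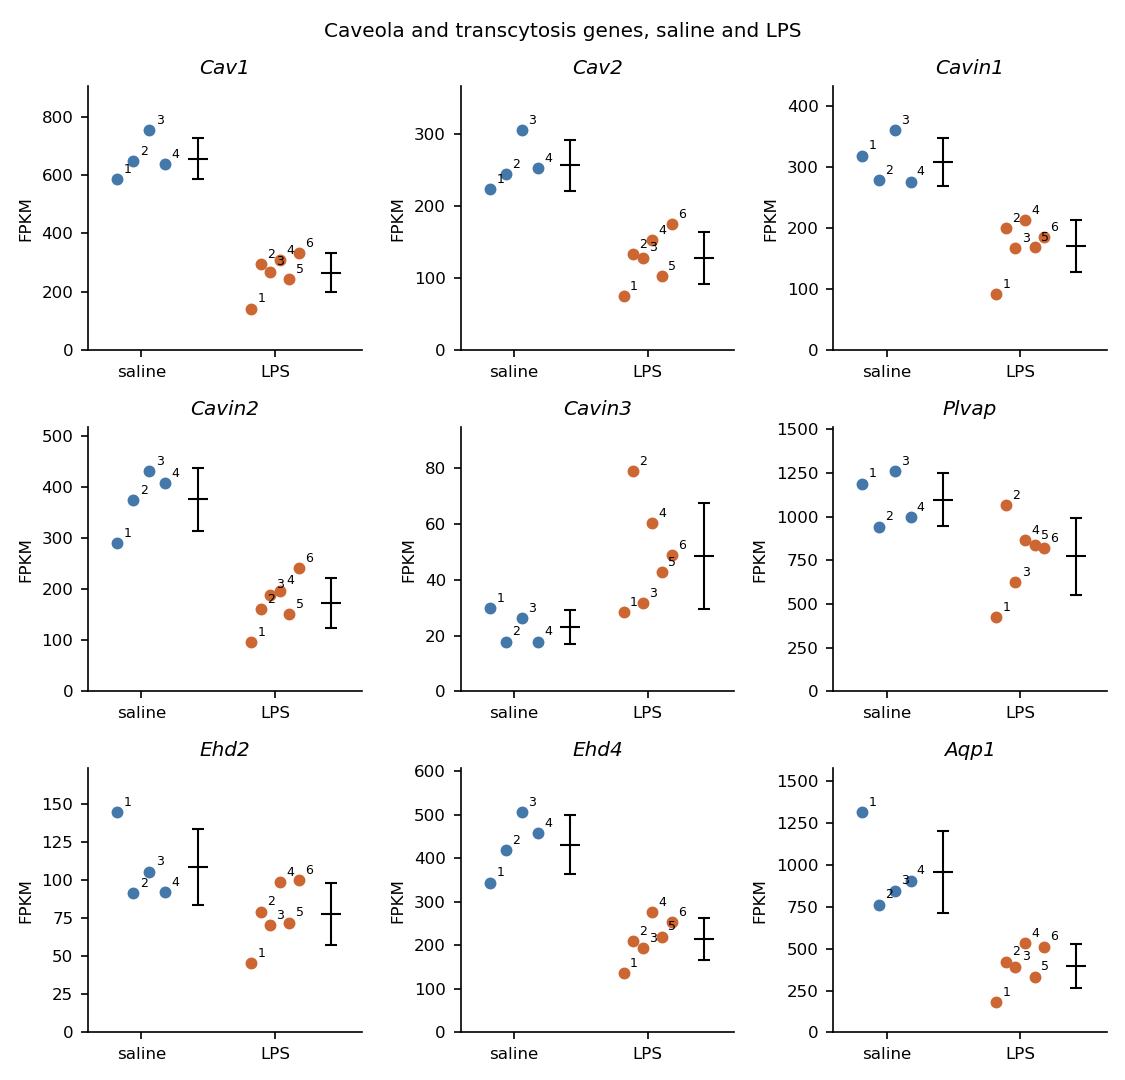
FPKM (y axis, from 0) of the 9 genes in each saline (blue, n = 4) and LPS (orange, n = 6) library, numbered by replicate, with the mean ± SD beside each group. The LPS libraries lie below every saline library for Cav1, Cav2, Cavin1, Cavin2, Ehd4 and Aqp1, overlap with them for Plvap, Ehd2 and Cavin3, and LPS 1 is the lowest LPS library in every panel.

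The caveolins fell together. Cav1 encodes caveolin-1, the coat protein without which ECs form no caveolae. It lies on chromosome 6 (GRCm38, 17306335 to 17341452, plus strand). Its FPKM was 587, 648, 754 and 636 in saline 1 to 4 and ranged from 143 to 333 in LPS, with a median of 283. The LPS libraries were all below the lowest saline library. The mean went from 656 ± 70.2 to 266 ± 67.6 FPKM, a log2 fold change of -1.34 (SE 0.23, limma adjusted p = 0.000749). Leaving out LPS 1 gave -1.17 (limma adjusted p = 0.000280). Cav2 encodes caveolin-2, which joins caveolin-1 in the same oligomers, and it ends 17219 bases before Cav1 on the same strand (17281185 to 17289115). Its FPKM was 223, 244, 306 and 253 in saline 1 to 4 and 75.1 to 175 in LPS, with a median of 131. The groups were again apart, with a log2 fold change of -1.04 (SE 0.22, limma adjusted p = 0.00264). Cav2 fell less than Cav1 within the libraries. The ratio of Cav2 to Cav1 FPKM was 0.390 in saline and 0.480 in LPS, with groups that did not overlap (difference of log2 ratios 0.30, two-sided exact permutation p = 0.00952, 0.0152 adjusted over the 8 ratios compared).

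The starts of genes that fell together are printed here to show what their promoter windows do and do not share. They are RefSeq windows on GRCm38.p6, from 250 bases before to 50 bases after the annotated start, written 5′ to 3′ on the strand of the gene. Capitals mark the GC box (GGGCGG, bound by Sp and KLF factors) or the shorter KLF-type CACCC, on either strand. The windows are Cav1 at chr6:17306085-17306384 (plus strand), Cav2 at chr6:17280935-17281234 (plus strand) and Cavin2 at chr1:51288876-51289175 (plus strand).
Cav1: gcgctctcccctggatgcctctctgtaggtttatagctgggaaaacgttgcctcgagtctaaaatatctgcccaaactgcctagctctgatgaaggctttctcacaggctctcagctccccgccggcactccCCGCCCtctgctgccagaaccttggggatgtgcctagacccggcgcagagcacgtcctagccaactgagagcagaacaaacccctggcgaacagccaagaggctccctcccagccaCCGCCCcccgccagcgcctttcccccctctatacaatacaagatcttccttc
Cav2: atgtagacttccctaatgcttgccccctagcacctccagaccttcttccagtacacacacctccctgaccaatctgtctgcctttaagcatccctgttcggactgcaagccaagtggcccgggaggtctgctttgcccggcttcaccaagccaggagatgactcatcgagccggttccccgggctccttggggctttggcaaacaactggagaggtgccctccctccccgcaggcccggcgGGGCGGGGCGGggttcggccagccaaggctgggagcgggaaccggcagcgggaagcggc
Cavin2: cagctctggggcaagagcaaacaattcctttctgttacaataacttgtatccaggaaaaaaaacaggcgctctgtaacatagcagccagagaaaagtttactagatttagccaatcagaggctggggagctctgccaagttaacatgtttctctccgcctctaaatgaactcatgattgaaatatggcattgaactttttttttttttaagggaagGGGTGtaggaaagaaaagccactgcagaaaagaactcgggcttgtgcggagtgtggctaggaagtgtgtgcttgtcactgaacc
The Cav1 and Cav2 windows each held 2 GC boxes, those of Cav2 overlapping by 1 base, and no CACCC. The Cavin2 window held no GC box and 1 CACCC, and its GC content was 43.3%, against 59.3% for Cav1 and 64.3% for Cav2 and a median of 52.7% over all 32851 windows. Windows were found for 7 of the 9 genes. With the window nearest the start in the expression tables, 6 of these 7 held a GC box and 4 of 7 held CACCC, in comparison with 35.7% and 57.5% of all windows. The ETS-type CCGGAAGT, found in 3.89% of all windows, and the NF-kB-type motif, found in 0.155%, were in 0 of the 7. These matches of letters describe the windows only.

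The cavins split. Cavin1, the adaptor that caveolins need to form a pit, lies on chromosome 11 (100956733 to 100970887, minus strand). Its FPKM was 318, 278, 360.0 and 276 in saline 1 to 4 and 92.6 to 212 in LPS, with a median of 177. All LPS libraries were below all saline libraries, for a log2 fold change of -0.88 (SE 0.22, limma adjusted p = 0.00666). Cavin2, which binds phosphatidylserine and helps to shape endothelial caveolae, lies on chromosome 1 (51289126 to 51302960, plus strand). Its FPKM was 291, 374, 432 and 409 in saline and 96.9 to 242 in LPS, with a median of 175. It fell by 1.15 on the log2 scale (SE 0.24, limma adjusted p = 0.00212), with groups apart. The ratio of Cavin2 to Cavin1 was 1.22 in saline and 1.01 in LPS and overlapped between the groups (difference of log2 ratios -0.27, exact permutation p = 0.152, adjusted 0.174). It was -0.41 without saline 1 (exact permutation, adjusted p = 0.0544) and -0.18 without saline 4 (adjusted 0.408).

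Cavin3, a cavin that binds protein kinase C delta and takes part in caveola dynamics, moved the other way. It lies on chromosome 7 (105480083 to 105482300, minus strand) and was the least abundant of the set. Its FPKM was 29.9, 17.8, 26.2 and 17.8 in saline 1 to 4, and 28.5, 78.9, 31.6, 60.2, 42.8 and 48.8 in LPS 1 to 6. The groups overlapped, because LPS 1 was below saline 1, while the other 5 LPS libraries were above every saline library. The mean went from 22.9 ± 6.10 to 48.5 ± 18.9 FPKM, a log2 fold change of 1.00 (SE 0.28, limma adjusted p = 0.0107). Without LPS 1 it was 1.13 (limma adjusted p = 0.00527). The ratio of Cavin3 to Cavin1 separated the groups fully. It ranged from 0.0640 to 0.0939 in saline and from 0.190 to 0.395 in LPS, and the difference of log2 ratios was 1.92 (exact permutation p = 0.00476, adjusted 0.00952, where 4 against 6 libraries allow no smaller p).

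Of the EHD ATPases, Ehd4 fell and Ehd2 did not pass the test. EHD2 forms rings at the neck of caveolae and keeps them at the membrane, and EHD4 is its relative in endosomal traffic that ECs also place at caveolae. Ehd4 (chromosome 2, 120089175 to 120154606, minus strand) had 344, 419.5, 507 and 458 FPKM in saline 1 to 4 and 137 to 276 FPKM in LPS, with a median of 215. No LPS library reached the lowest saline library, giving a log2 fold change of -1.02 (SE 0.21, limma adjusted p = 0.00193). Ehd2 (chromosome 7, 15946958 to 15967567, minus strand) had 145, 91.7, 106 and 92.3 FPKM in saline and 45.5 to 100.1 FPKM in LPS, with a median of 75.7. The groups overlapped and Ehd2 did not pass the test (log2 fold change -0.50, 95% interval -0.99 to -0.0034, limma adjusted p = 0.0821). Saline 1 was the highest library of the first experiment for Ehd2, and leaving it out gave -0.35 (limma adjusted p = 0.209). The ratio of Ehd4 to Ehd2 was 4.01 in saline and 2.79 in LPS (exact permutation p = 0.0429, adjusted 0.0571), and without saline 1 the difference of log2 ratios grew from -0.52 to -0.78 (exact permutation, adjusted p = 0.0190), while leaving out any other library gave an adjusted p of 0.0952 to 0.127, so that a difference between Ehd4 and Ehd2 was not established.

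Plvap encodes the protein of the diaphragms that close the mouths of caveolae and fenestrae, and lies on chromosome 8 (71497765 to 71511752, minus strand). Its FPKM was 1189, 943, 1261 and 998 in saline 1 to 4 and 427, 1064, 624, 865, 838 and 822 in LPS 1 to 6. LPS 2 lay within the saline range and the other LPS libraries lay below it. Plvap did not pass the test (log2 fold change -0.55, 95% interval -1.14 to 0.03, limma adjusted p = 0.101). Relative to Cav1 it was higher after LPS in every library. The ratio of Plvap to Cav1 ranged from 1.46 to 2.03 in saline and from 2.31 to 3.60 in LPS (difference of log2 ratios 0.79, exact permutation p = 0.00476, adjusted 0.00952). The end of Plvap overlaps Gtpbp3 on the other strand, which had 4.21 to 13.2 FPKM. The strandedness of the counting is not given in the sources used here, so reads in the overlap cannot be told apart.

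Aqp1 lies on chromosome 6 (55336432 to 55348555, plus strand). Its FPKM was 1316, 764, 847 and 906 in saline 1 to 4 and 179 to 533 in LPS, with a median of 407. Saline 1 was far above the other saline libraries, and all LPS libraries were below all saline libraries. Aqp1 fell by 1.33 on the log2 scale (SE 0.31, limma adjusted p = 0.00404) and by 1.16 without saline 1 (limma adjusted p = 0.0112). The ratio of Aqp1 to Cav1 was 1.43 in saline and 1.45 in LPS (difference of log2 ratios 0.02, exact permutation p = 0.924, adjusted 0.924), with libraries from 1.12 to 2.24 in saline and 1.25 to 1.72 in LPS. The highest was saline 1, the other saline libraries reached 1.42, and without saline 1 the difference was 0.23 (exact permutation, adjusted p = 0.0833). Of the 8 ratios compared, 5 passed an adjusted p of 0.05, and in all 5 the gene named first had gained on the second (Cav2, Cavin1, Ehd2 and Plvap on Cav1, and Cavin3 on Cavin1).

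**Figure D2:**
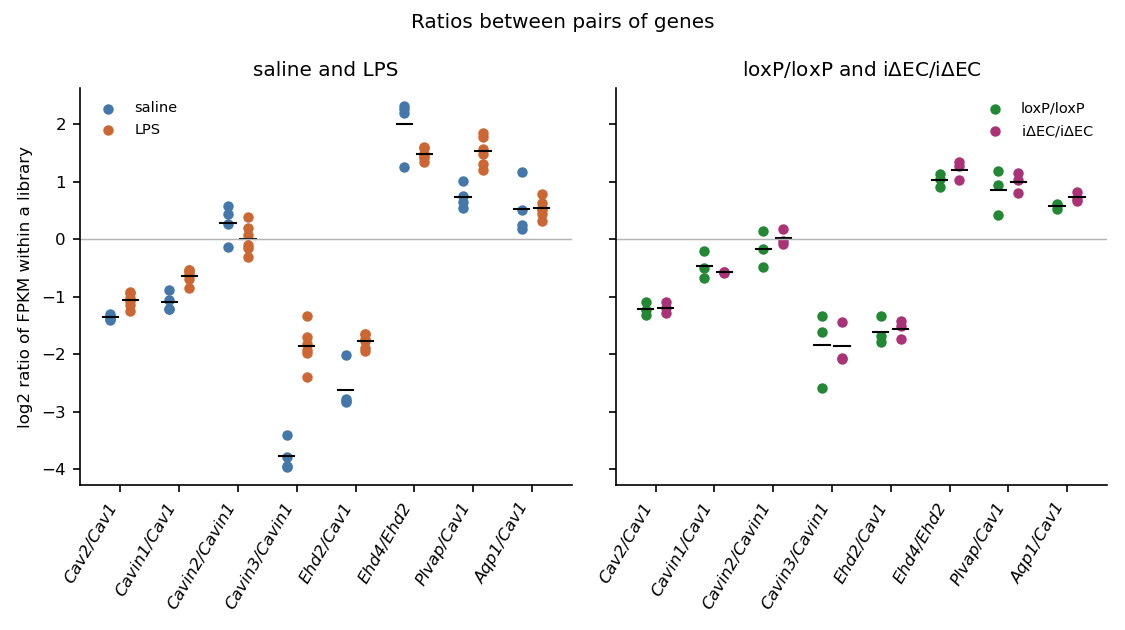
Log2 ratio of FPKM (y axis) between 8 pairs of genes (x axis) within each library, for saline and LPS on the left and for loxP/loxP and iΔEC/iΔEC on the right, with points for libraries and bars for group means. Cavin3/Cavin1 shows the widest gap between saline and LPS (mean log2 ratio -3.78 and -1.86), and the groups of the second experiment overlap for 7 of the 8 ratios.

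The content of the fraction changed with LPS in parallel. The endothelial marker level was 7.77 ± 0.10 (SD, n = 4) in saline and between 6.25 and 7.37 (n = 6) in LPS, below every saline library (difference -0.77, exact permutation p = 0.00952, 0.0206 adjusted over the 13 marker lists). Of its 10 genes, 6 fell by limma and 0 rose (23.7% and 29.5% over all genes tested). Kdr, the receptor of VEGF, had the largest fold change among them (-1.63), and Cldn5, the most abundant, had -0.50 and did not pass. The general capillary list (Aplnr, Gpihbp1, Kit, Ptprb, Cxcl12) differed by -1.79 and the aerocyte list (Car4, Ednrb, Fibin, Tbx2, Apln) by -1.59, each with 4 of 5 genes that fell (exact permutation, adjusted p = 0.0155). The venous list did not pass (0.17, adjusted 0.657), with Selp and Ackr1 higher and Vwf and Slc6a2 lower.

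Markers of CD45-positive cells rose, although these cells had been depleted. By limma 6 of 6 leukocyte, 5 of 6 macrophage and 4 of 5 neutrophil genes rose, in comparison with 29.5% of all genes tested. The leukocyte list differed by 2.83 and the macrophage list by 3.24, each apart between the groups (exact permutation, adjusted p = 0.0155). Summed over the list, leukocyte genes had 66.0 to 229 FPKM in saline and 632 to 1534 FPKM in LPS, with Coro1a the most abundant, and macrophage genes had 371 to 1104 and 1830 to 3944 FPKM, with Lyz2 the most abundant. The neutrophil list differed by 2.98 and overlapped through saline 1 (adjusted 0.0206). The erythroid list, in which the globins can share reads and Alas2 was below 0.5 FPKM throughout, differed by 0.81 (adjusted 0.0265) and lost its call in 7 of the 10 comparisons that left out 1 library (exact permutation, adjusted p of 0.0516 to 0.0967). The endothelial and neutrophil calls were likewise lost without saline 2, 3 or 4 (adjusted 0.0516 each). Type I alveolar (-0.66, adjusted 0.0894), type II alveolar (-0.52, adjusted 0.236), fibroblast (-0.40, adjusted 0.0851), mural (-0.38, adjusted 0.235) and mesothelial lists (-0.07, adjusted 0.402, with 4 of 5 genes below 0.5 FPKM throughout) did not pass the same exact permutation test. Single genes of these lists did fall by limma, namely 4 of 7 type I (with 1 higher), 1 of 5 type II, 3 of 6 fibroblast and 2 of 6 mural genes. Of all genes tested, 23.7% fell. The type II gene was Sftpc, surfactant protein C and the most abundant of its list, which went from 1316 ± 549.7 to 280.1 ± 126 FPKM (log2 fold change -2.30, limma adjusted p = 0.00116).

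The 9 genes were therefore also compared after scaling the libraries on the 10 endothelial markers, a list that holds none of them. On this scale the median log2 fold change over all genes moved from 0.01 to 0.61. Cav1 (-0.56, limma adjusted p = 0.0101) and Aqp1 (-0.55, limma adjusted p = 0.0299) remained lower, and Cavin3 remained higher (1.75, limma adjusted p = 6.40e-05). Cav2 (-0.26), Cavin1 (-0.11), Cavin2 (-0.38) and Ehd4 (-0.25) no longer passed, with limma adjusted p-values of 0.102 to 0.592. Plvap (0.23) and Ehd2 (0.27) turned to the other side of 0 and did not pass. Scaling on total reads (3464 genes higher and 4678 lower in all) and quantile normalization (3570 and 4295) moved the other way, and on both Plvap and Ehd2 also fell, for 8 of the 9 genes lower and 1 higher. Thus 6 genes were lower per library, and 2 were lower relative to the endothelial list of the same library taken as a whole. Before this scaling Kdr, alone of that list, fell more (-1.63) than Cav1 (-1.34) and Aqp1 (-1.33). The general capillary (-1.79) and aerocyte lists (-1.59) also differed by more. What part the other cells had in these values was not tested.

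Genes beyond the 9 that work in or beside caveolae did not follow one direction. Among 12 other genes of the caveola coat and neck, 9 were tested, of which 4 rose and 3 fell, with a median log2 fold change of 0.25. Over all genes tested 29.5% rose and 23.7% fell, so counts of this size in both directions were common. Flot1, which encodes a scaffold of flat membrane domains, went from 35.0 ± 5.62 to 73.0 ± 14.9 FPKM (log2 fold change 1.03, limma adjusted p = 0.000412). Ehd1, an EHD ATPase of recycling endosomes, went from 108 ± 26.1 to 213 ± 40.9 FPKM (0.98, limma adjusted p = 0.00164), opposite to its relative Ehd4. Pacsin2, an F-BAR protein that bends the membrane of the caveola neck, rose by 0.64, and the dynamin Dnm2, which cuts the neck, by 0.29. Ehd3, Cavin4 and Dnm1 fell from low levels (at most 3.72 FPKM in any library). The calls of Cavin4 and Dnm2 were near the limit and were lost in 8 and 6 of the 10 comparisons that left out 1 library. Over these comparisons 3 to 4 genes of the list were higher and 1 to 3 lower.

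Of 7 caveola-associated signalling genes 6 were tested and 3 fell, in comparison with 23.7% of all genes tested. Those that fell were Bmpr2 (-1.05), the receptor of bone morphogenetic proteins mutated in heritable pulmonary arterial hypertension, Prkca (-0.88) and Src (-0.50). Src lost its call without any 1 of 8 of the 10 libraries (limma adjusted p up to 0.116). Nos3, the endothelial nitric oxide synthase that caveolin-1 binds, had a log2 fold change of -0.10 and did not pass, and stood at 0.23 without saline 1. Of 14 cargo receptors and suppressors of transcytosis 12 were tested, with 4 higher and 5 lower (29.5% and 23.7% over all genes tested). Lrp1, a scavenging receptor of many ligands, rose most (2.02, from 10.4 ± 2.53 to 47.1 ± 17.5 FPKM), and the transferrin receptor Tfrc (0.95) rose too. Lrp8, at most 0.0863 FPKM in saline and at least 0.832 FPKM in LPS, entered the test only through its LPS libraries. Vldlr (-0.79), the fatty acid transporter Cd36 (-0.67), Acvrl1 (-0.66), Insr (-0.65) and Stab1 (-0.53) fell. Leaving out 1 library left 3 to 6 genes of this list lower. With scaling on the endothelial markers Cd36, Acvrl1, Insr and Stab1 changed sign, as did Src and Nos3. Acvrl1 lost its call in 6 of the 10 comparisons that left out 1 library (limma adjusted p up to 0.0999) and Cd36 in 1, without saline 3 (limma adjusted p = 0.0657). Lrp1 is also a gene of macrophages, whose markers rose in the same libraries. Fcgrt, the neonatal Fc receptor that carries IgG and albumin, did not pass (-0.07), and Mfsd2a, a suppressor of transcytosis in brain ECs, was too low to test (at most 0.638 FPKM).

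The clathrin route, the other main way of endocytosis, stood on the side of higher values. Of 12 clathrin coat and adaptor genes, all tested, 9 rose and 1 fell (29.5% and 23.7% over all genes tested), with a median of 0.46. The clathrin light chain Clta (1.26) and the adaptor subunit Ap2s1 (1.30) had the largest rises, and the epsin Epn2 fell (-1.26, from 36.3 ± 4.23 to 14.8 ± 2.98 FPKM). Of 13 vesicle docking, fusion and sorting genes 7 rose and 2 fell, among them Nsf (1.11), the ATPase that takes SNARE complexes apart, Rab5c (0.86) and Snap23 (0.83). These rises depended on the scaling, since with quantile normalization 3 clathrin and 2 vesicle genes rose. Leukocyte, macrophage and neutrophil markers rose in the same libraries, and their part in these values was not tested. Among 11 other aquaporins only 3 were tested. Aqp9 rose (0.91, to 1.70 ± 0.575 FPKM), Aqp11 fell (-0.64, from 1.10 ± 0.114 FPKM) and Aqp5, the type I alveolar water channel, did not pass (-0.62), and all 3 were far below Aqp1. Over all 69 genes of these lists, 55 were tested, of which 25 rose and 15 fell, in comparison with 29.5% and 23.7% of all genes tested. Of these, Lrp8, Aqp9, Dnm1, Vldlr and Aqp11 averaged under 0.5 FPKM in one group and entered the test only through the other, which bound them to differ, and 23 rose and 12 fell among the remaining 50. The totals over all lists depended on the scaling too. With quantile normalization 12 genes were higher, and with scaling on the endothelial markers 3 were lower.

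**Figure D3:**
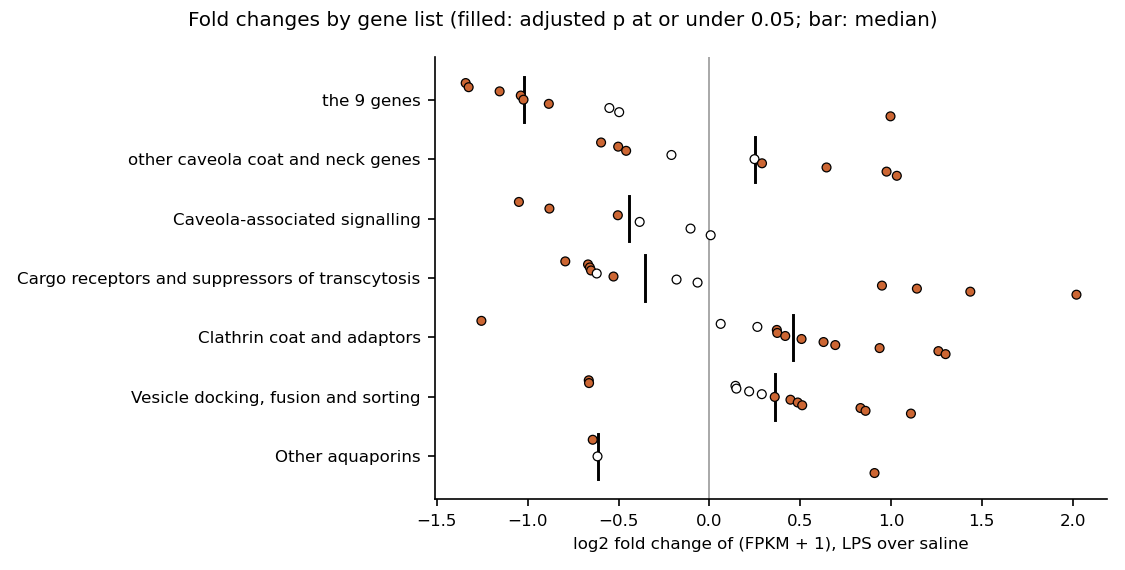
Log2 fold change of FPKM + 1, LPS over saline (x axis), for the tested genes of each list (y axis), with filled points at an adjusted p at or under 0.05 and a bar at the median of the list. The 9 genes lie mostly on the negative side (median -1.02) with Cavin3 alone at 1.00, and the clathrin list lies mostly on the positive side (median 0.46).

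Genes whose pattern was most like each of the 9 were sought over the 10 libraries of the first experiment, among the 7764 genes that averaged at least 5 FPKM. Likeness was the root mean square difference between the log2 profiles after each was centred on its mean, so that a smaller value is closer. Cav1 was closest to Clstn1 (0.08), Tspan12 (0.11) and Stxbp6 (0.12), Cav2 to Rab6b, Tmem47 and Cdr2l, and Cavin2 to Nectin3, Nipal3 and Pxdn. Cav2 and Cavin2 were near neighbours of each other, Cavin2 being 6th in the order of Cav2 and Cav2 5th in that of Cavin2 (0.13). Cavin1 was closest to Tspan7, Hid1 and Dmwd, Plvap to Npdc1, Mapk12 and Il17rc, Ehd2 to Hspa12b, Rab12 and Robo4, and Ehd4 to Gipc3, Pam and Afap1l1. Aqp1 had no gene as close, its first being Pmp22 (0.18), Igfbp4 (0.20) and Kcnq1 (0.21). Cavin3 was closest to Ly6a (0.09), Myl6 (0.13) and Myl12a (0.15), and its nearest member of the set, Plvap, came 5126th (0.78). Likeness over both groups includes the difference between saline and LPS. Cavin3 alone of the 9 had a positive log2 fold change, so its distance from the other members follows in part from that.

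In the second experiment the targeted gene was read first. Fgfr1 had 2.90, 2.91 and 2.60 FPKM in loxP/loxP 1 to 3 and 0.682, 1.41 and 1.15 FPKM in iΔEC/iΔEC 1 to 3. The groups were apart, with means of 2.80 ± 0.178 and 1.08 ± 0.369 FPKM. The log2 fold change was -0.88 (SE 0.16, limma adjusted p = 0.962 over 14945 genes, exact permutation p = 0.1, below which 3 against 3 libraries cannot go). The pseudocount of 1 compresses the change of a gene at this level, which was -1.35 with a pseudocount of 0.1 and -1.43 with limma-voom on read numbers. In the first experiment Fgfr1 fell after LPS, from 3.61 ± 1.28 to 1.81 ± 0.592 FPKM (log2 fold change -0.70, limma adjusted p = 0.0113). Without saline 1 it was -0.52 (limma adjusted p = 0.0264). The endothelial marker level differed by -0.77 between the same groups, and these Fgfr1 values are not scaled on it.

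With endothelial Fgfr1 deleted, 0 of the 9 genes passed the test. Over all 14945 genes tested, 0% passed, 4.42% had an unadjusted p under 0.05 and 10.1% had groups that did not overlap (6.02% higher and 4.09% lower). Of the 9 genes 0 had an unadjusted p under 0.05 by limma and 0 had groups apart. The genes with positive log2 fold changes numbered 7 and those with negative ones 2, and limma adjusted p-values ran from 0.962 to 0.993. The plot of FPKM by genotype joins libraries of the same number, which deviated together across all genes.

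**Figure D4:**
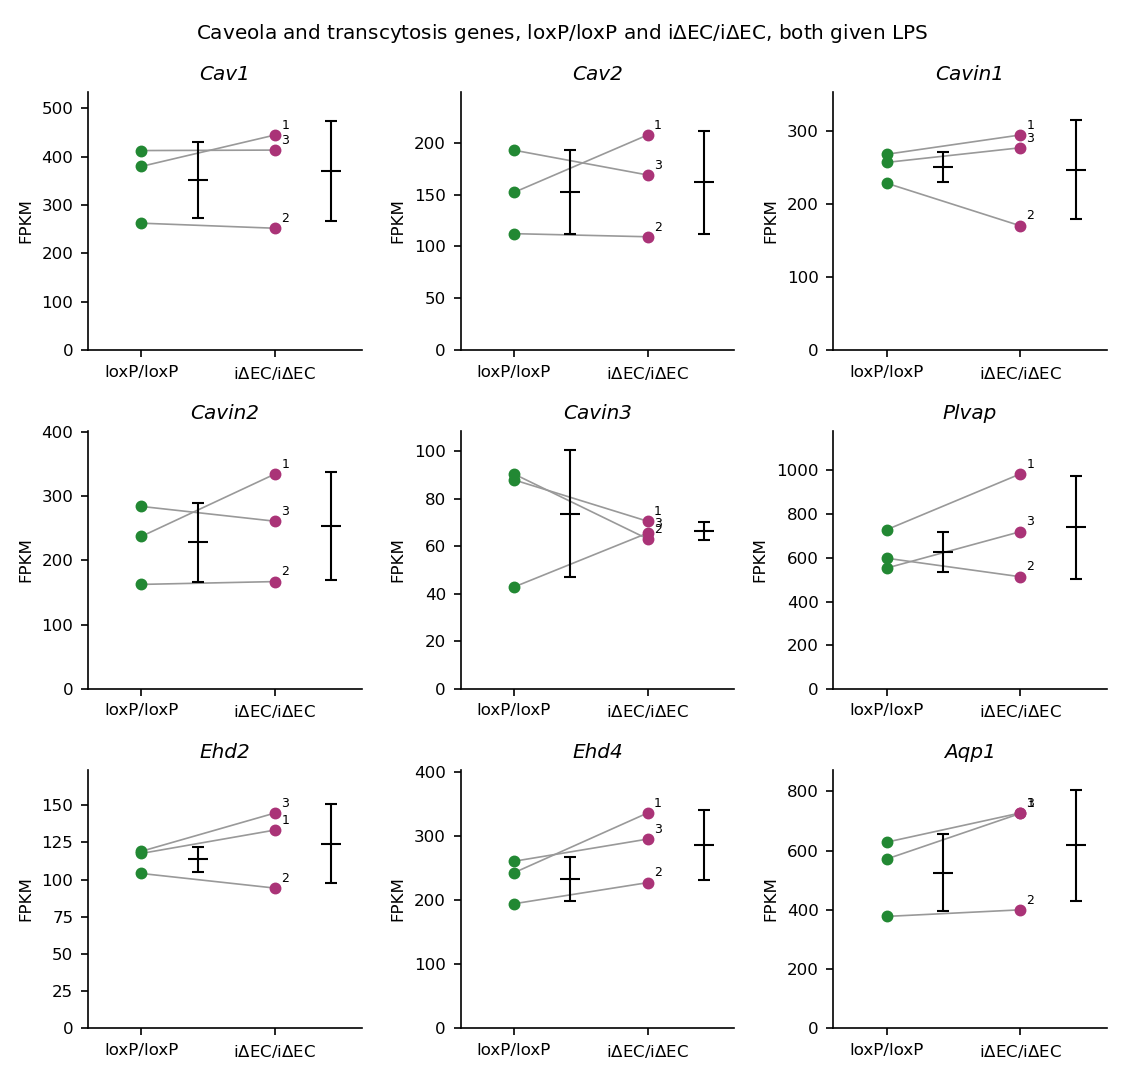
FPKM (y axis, from 0) of the 9 genes in loxP/loxP (green, n = 3) and iΔEC/iΔEC (purple, n = 3) libraries, lines joining the same replicate number, with the mean ± SD beside each group. The groups overlap in all 9 panels, and iΔEC/iΔEC 2 is the lowest iΔEC/iΔEC library in each.

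Cav1 had 380.0, 262 and 413 FPKM in loxP/loxP 1 to 3 and 445, 252 and 414 FPKM in iΔEC/iΔEC 1 to 3. The second library was the lowest of each genotype, and this spread was wider than the difference of the means (log2 fold change 0.06, 95% interval -0.64 to 0.76). Cav2 had 152, 112 and 193 FPKM in loxP/loxP and 208, 109 and 169 FPKM in iΔEC/iΔEC (0.07, interval -0.64 to 0.78), with the same low second libraries. Cavin1 had 268, 229 and 257 FPKM against 295, 170.3 and 277 FPKM (-0.06, interval -0.63 to 0.51). Cavin2 had 237, 163 and 284 FPKM against 334, 167 and 261 FPKM (0.14, interval -0.63 to 0.90). The iΔEC/iΔEC libraries spanned the whole loxP/loxP range for Cavin1 and all but its lowest library for Cavin2. Cavin3 had 88.0, 90.4 and 42.9 FPKM in loxP/loxP and 70.6, 63.1 and 65.6 FPKM in iΔEC/iΔEC (-0.07, interval -0.77 to 0.62), so here the loxP/loxP libraries enclosed those of the other genotype.

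Ehd2 had 118, 104 and 119 FPKM in loxP/loxP and 133, 94.2 and 145 FPKM in iΔEC/iΔEC (0.11, interval -0.34 to 0.56). Plvap had 729, 598 and 553 FPKM against 984, 514 and 719.5 FPKM (0.20, interval -0.50 to 0.89). In both genes the second iΔEC/iΔEC library was below every loxP/loxP library. Ehd4 had 243, 194 and 261 FPKM in loxP/loxP and 336, 227 and 295 FPKM in iΔEC/iΔEC (0.29, interval -0.21 to 0.79). Aqp1 had 571, 377 and 628 FPKM against 725, 399 and 727 FPKM (0.21, interval -0.58 to 1.00). Ehd4 and Aqp1 were the genes of the set that were higher in iΔEC/iΔEC in 3 of 3 libraries of the same number, by 0.18 to 0.47 and by 0.08 to 0.34 on the log2 scale. These intervals treat the libraries as unpaired. A pairing by replicate number is given neither by the labels nor by the study's methods, and was inferred from correlations in these data. With the replicate number as a block the SE of each of the 9 genes was smaller (0.14 instead of 0.29 for Cav1, 0.16 instead of 0.33 for Aqp1), and the intervals reached from -0.71 (Cavin3) to 0.74 (Plvap). In this fit with the block Ehd4, with an interval of -0.06 to 0.65, had the lowest limma adjusted p of the 9 (0.657), and all 9 intervals held 0.

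**Figure D5:**
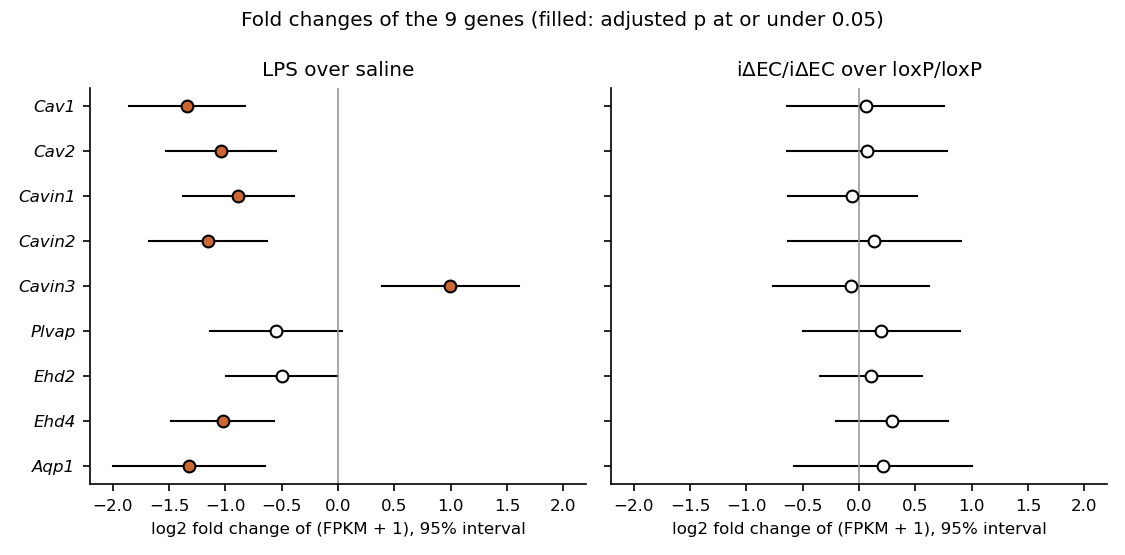
Log2 fold change of FPKM + 1 (x axis) with its 95% interval for the 9 genes (y axis), LPS over saline on the left and iΔEC/iΔEC over loxP/loxP on the right, filled where the adjusted p was at or under 0.05. On the left 7 genes are filled, with Cav1 lowest at -1.34 and Cavin3 at 1.00, and on the right 0 are filled and every interval crosses 0.

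Among the 8 ratios between the genes, with 3 against 3 libraries and thus no exact permutation p below 0.1 to be had, Aqp1 to Cav1 was the one whose groups did not overlap, with 1.44 to 1.52 in loxP/loxP and 1.59 to 1.76 in iΔEC/iΔEC (exact permutation p = 0.1, adjusted 0.8). The other 7 overlapped. The wider lists had 0 of 56 tested genes that passed in either direction, and 1 of them, Rab5a, had a log2 fold change of 0.21 with an unadjusted p of 0.0492 by limma. The endothelial marker level was 7.17 ± 0.18 in loxP/loxP and 7.41 ± 0.29 in iΔEC/iΔEC (exact permutation p = 0.3, adjusted 0.722), and higher in iΔEC/iΔEC in 3 of 3 pairs of the same number, by 0.10 to 0.37. The aerocyte list was also higher in 3 of 3 pairs (by 0.08 to 0.44), and the neutrophil, type I alveolar, type II alveolar, mural and mesothelial lists were lower in 3 of 3. No list could pass this test with 3 against 3 libraries. The type I alveolar and mesothelial lists were apart between the groups (-0.47 and -0.13, exact permutation p = 0.1, adjusted 0.65). Of the 5 mesothelial genes only Krt19 was high enough to test. Upk3b, Wt1 and Lrrn4 were below 0.5 FPKM throughout, and Msln averaged 0.568 FPKM in loxP/loxP and 0.267 FPKM in iΔEC/iΔEC. The type II alveolar list had the largest difference of the 13 (-0.98, exact permutation p = 0.2, adjusted 0.722). Its level was 6.28, 6.89 and 7.41 in loxP/loxP 1 to 3 and 5.17, 6.54 and 5.92 in iΔEC/iΔEC 1 to 3. The part of these lists in the values of the 9 genes was not tested, beyond a scaling on the 10 endothelial markers. After that scaling 6 of the 7 positive fold changes turned negative (between -0.03 and -0.19) and Ehd4 alone kept its sign, and 0 passed.

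The experiments were tabulated and scaled apart and differ in dose, in genotype and in tamoxifen, which was given in the second. No test was made between them, but ratios within a library do not depend on that scaling. Cavin3 to Cavin1 was 0.0729 in saline and 0.275 in the 10 mg/kg LPS group, and 0.279 and 0.276 in the loxP/loxP and iΔEC/iΔEC groups given 2 mg/kg. Ehd2 to Cav1 was 0.163 in saline, 0.293 in the 10 mg/kg group and 0.328 and 0.340 in the second experiment. Plvap to Cav1 was 1.67 in saline and 2.89 at 10 mg/kg, and 1.80 and 1.99 in the groups given 2 mg/kg. The loxP/loxP libraries ranged from 0.167 to 0.395 for Cavin3 to Cavin1 and from 1.34 to 2.28 for Plvap to Cav1. Those of iΔEC/iΔEC ranged from 0.237 to 0.371 and from 1.74 to 2.21. Between the experiments dose, genotype and tamoxifen cannot be told apart.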

How the data were processed

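RNA of bead-isolated pulmonary ECs was sent by the authors to a company and sequenced on an Illumina NovaSeq. The authors aligned reads to GRCm38/mm10 with HISAT2 (2.0.5), counted them on genes with featureCounts (1.5.0-p3) and deposited FPKM with gene lengths. The annotation release and strandedness are not given in the sources used here. Multiplying FPKM by gene length and by 1 factor for each library gave whole read numbers, within 0.05, for 100% of values. The library sizes in the FPKM matched median-of-ratios factors within 0% in the first table and 0.182% in the second, and 11 symbols of the second that had turned into dates were taken from the first. Replicates differed by more than sampling noise (mean chi-square of read numbers at least 5.06).

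After median-of-ratios scaling, limma 3.58.1 (R 4.3.3, lmFit and eBayes with trend) was run on log2(FPKM + 1) of genes averaging at least 0.5 FPKM, with Benjamini-Hochberg adjustment over all genes tested and calls at 0.05. Fold changes on this scale understate the change of genes at low FPKM. Intervals are 95% intervals. Ratios between genes and levels of marker lists were tested by exact permutation (two-sided), adjusted over 8 ratios and 13 lists. Gpihbp1 and Aqp5 stand both in a marker list and in a wider list. The study's methods state no pairing of libraries, and the labels do not say what a replicate number marks. In the second experiment same-numbered libraries deviated together over all genes (correlations of 0.248, 0.178 and 0.187, each the best for its library). A possible pairing by number rests on these values alone. A fit with the number as a block still called 0 genes. Alternatives were other pseudocounts, filters and scalings, limma-voom on read numbers, a fold limit, the replicate block and leaving out each library. The 9 genes were taken by name, and each wider list is represented by up to 3 called genes with the largest fold change, with others named after their values were seen. The members, lists and tests were chosen with earlier results of these data known. Some single genes of these lists are not reported here.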

Additional observations from a re-analysis of the deposited data

Results flagged for a closer look

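Of 62 group values examined in groups of 4 to 6 libraries, 5 had a library far from the others, and chance gives about 1 in 20, or 3.1. Saline 1 held 3 of them. Fgfr1 was at 5.52 FPKM there, the other saline libraries being at 2.82 to 3.17 FPKM. The log2 ratio of Ehd2 to Cav1 was -2.02 in saline 1, against -2.84 to -2.79 in the others. The log2 ratio of Ehd4 to Ehd2 was 1.25, against 2.19 to 2.31. LPS 1 held the other 2. Its endothelial marker level was 6.25, against 6.96 to 7.37 in the other LPS libraries, and its aerocyte marker level was 3.56, against 4.57 to 5.14. With either library left out, 6 of the 9 genes fell and 1 rose after LPS, as with all libraries.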

How the results depend on the processing

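In LPS over saline the members' calls (6 lower, 1 higher) were the same in each of the 10 fits that left out 1 library and with a pseudocount of 0.1, no filter, a mean of at least 1 FPKM, FPKM as deposited and limma-voom. The split of all calls was 4399 higher and 3529 lower as reported, 3464 and 4678 on total reads (median log2 fold change of all genes -0.15, from 0.01), 3570 and 4295 with quantile normalization, and 7628 and 724 with scaling on the endothelial list, where the median log2 fold change was 0.61. On that scale 2 members were lower, Plvap (0.23), Ehd2 (0.27) and Src (0.023) changed sign, as did Insr (0.012), Stab1 (0.23), Cd36 (0.11), Acvrl1 (0.12), Nos3 (0.62), Fcgrt (0.69), Vamp2 (0.089) and Aqp5 (0.045), and 3 genes of the wider lists were lower. Plvap and Ehd2 were called lower on total reads (-0.75 and -0.70) and with quantile normalization (-1.21 and -1.08), which left 12 genes of the wider lists higher and Dnm2 at -0.18. Leaving out 1 library gave Nos3 -0.25 to 0.23 and Fcgrt -0.12 to 0.0051. For members the range was -1.14 to -0.90 (Cav2), -0.96 to -0.72 (Cavin1), -0.65 to -0.39 (Plvap) and -1.43 to -1.11 (Aqp1). With the fold limit 1768 and 1011 genes passed, 0 members were higher, and 7 genes of the wider lists were higher and 2 lower, by construction. The replicate block of the first experiment, whose numbers only name the samples (same-number correlations of 0.10, -0.16, -0.21 and -0.12, not each the best), gave 0 members higher (Cavin3 1.00, adjusted p = 0.0808) and 16 wider genes higher. In the second experiment the block changed no call.

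Marker lists, whose alternatives were chosen after seeing the data, passed with total reads for type I (-0.83) and fibroblast genes (-0.54) and with quantile normalization for type I (-0.83), type II (-1.01) and fibroblast genes (-0.49). The venous list was at -0.0061 with quantile normalization and the mesothelial list at 0.041 with a pseudocount of 0.1. Leaving out 1 library gave -0.84 to -0.62 for the endothelial, 2.48 to 3.79 for the neutrophil, 0.67 to 0.94 for the erythroid and -0.13 to 0.47 for the venous list. The endothelial and neutrophil lists reached an adjusted exact permutation p of 0.0516 without saline 2, 3 or 4, and the erythroid list 0.0516 to 0.0967 without saline 2, 3 or 4 or LPS 1, 2, 4 or 6. The ratio Ehd4/Ehd2 ran from -0.78 to -0.42, passing without saline 1, Aqp1/Cav1 from -0.0997 (without saline 3) to 0.23 (without saline 1) and Cavin2/Cavin1 from -0.41 (without saline 1) to -0.18 (without saline 4).

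In the second experiment 0 genes were called under any alternative, and of the 9 genes only Ehd4 kept its sign under each alternative (0.047 with scaling on the endothelial list, 0.17 to 0.45 with 1 library left out). On total reads Cav1 was at -0.0099 and the general capillary list at -0.0013. With scaling on the endothelial list Cav1 was at -0.19, Cav2 at -0.17, Cavin2 at -0.11, Plvap at -0.047, Ehd2 at -0.14 and Aqp1 at -0.032. Leaving out 1 library gave -0.14 to 0.31 for Cav1, -0.13 to 0.33 for Cav2, -0.21 to 0.19 for Cavin1, -0.089 to 0.41 for Cavin2, -0.42 to 0.11 for Cavin3, -0.034 to 0.43 for Plvap, -0.016 to 0.29 for Ehd2 and -0.0096 to 0.50 for Aqp1. The ratios ran from -0.038 to 0.074 (Cav2/Cav1), -0.23 to 0.014 (Cavin1/Cav1), -0.38 to 0.24 (Cavin3/Cavin1), -0.044 to 0.19 (Ehd2/Cav1) and -0.074 to 0.31 (Plvap/Cav1), and the lists from -0.20 to 0.33 (general capillary), -0.38 to 0.23 (macrophage), -0.33 to 0.11 (fibroblast) and -0.21 to 0.61 (erythroid). The causes of these changes were not tested. Depth did not limit the members, which had at least 583 reads each, but 3 libraries per genotype limit the second experiment.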
